A study of Mus musculus with 9 samples.

Results

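The endothelins and Kit ligand (Kitl) are secreted or membrane-bound signals that melanocytes need, and Ednra, Ednrb and Kit are their receptors. The set described here is a list of 8 genes, taken by symbol: the ligands Edn1, Edn2, Edn3 and Kitl, the processing enzyme Ece1, and the receptors Ednra, Ednrb and Kit. Of these, 7 had a probe set that carried their symbol alone, with 18 probe sets between them, out of 18193 genes measured. Ednra was not analysed here. Where a gene has several probe sets, the one with the highest average over 9 arrays is called the main probe set, and the other probe sets are given beside it.

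Expression was measured on 1-colour arrays in 3 sorted cell populations of neonatal mouse back skin, taken at postnatal day 2. Each of 3 mice, numbered 2, 4 and 5, gave 1 array per population. Gate R1 held GFP-CD133- cells, described as total dermal cells and, per sample, as without dermal papilla. Gate R2 held GFP-CD133+ cells, labelled as dermal papillae of zigzag hairs, and gate R3 held GFP+CD133+ cells, labelled as dermal papillae of guard, awl and auchene hairs. Prom1 encodes CD133, and in mice of this kind GFP is known to report Sox2. The labels name no treatment, and they state neither strain nor genotype beyond GFP, so what else all 3 gates share is unknown here.

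The dermal papilla is the mesenchymal core of the hair follicle, and it lies against the bulb keratinocytes and melanocytes that build and pigment the hair. Endothelins are made as long precursors, which endothelin converting enzyme trims to short active peptides. Ednrb binds all endothelins, and its signalling with Edn3 is needed for melanoblasts to spread through the skin and for enteric neurons to form. Kitl, also called stem cell factor, binds the receptor tyrosine kinase Kit, which melanocytes and mast cells carry. Loss of either pathway in mice leaves white coat spots.

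Values are log2 expression values, so a difference of 1 is a doubling. Array medians lay between 6.13 and 6.20. As a guide to background, the 95th percentile over 44 probe sets of olfactory receptors lay between 5.14 and 5.46 on the 9 arrays. Arrays of the same gate correlated at 0.977 to 0.985 across probe sets, and arrays of different gates at 0.951 to 0.974. The gate genes followed the sort in part. Prom1 averaged 7.43, 11.85 and 10.32 in R1, R2 and R3, and Sox2 averaged 4.19, 7.08 and 10.66. Prom1 lay above R1 in both CD133+ gates, but these gates differed 2.90-fold, with the larger mean in R2. Sox2 was highest in the GFP+ gate R3. Of the GFP- gates, R2 nonetheless exceeded R1 by 7.44-fold for Sox2. In both cases the arrays of the compared gates did not overlap. Of 19 measured dermal papilla markers, 11 were higher in R2 and 16 in R3 than in R1, with 0 lower in either. Over all genes, 6.89% and 7.9% were higher. The marker list was chosen with earlier results of these data known, so these counts are no independent check of the sort. The beta-actin control probe sets differed less between 3' and 5' ends in R1 (0.04 to 0.07 over its arrays) than in R2 and R3 (0.11 to 0.22). Those of Gapdh overlapped between the gates, with mean differences of 2.85, 2.68 and 2.84 in R1, R2 and R3. The part of this in the results below was not tested.

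Between the gates, Ednrb rose in both papilla populations, Edn3 was higher in R3 than in R1, and Kit fell in both. Kitl and Edn1 were lower in R3 than in the other 2 gates. Edn2 lay near background in R2 and R3, and Ece1 was not called in any comparison. Genes were called at a Benjamini-Hochberg adjusted p under 0.05 in limma, adjusted over all 18193 genes. Between R3 and R2, 0 members were higher and 2 lower, where 5.03% of all genes were called (1.97% higher, 3.06% lower). Between R2 and R1, 1 was higher and 2 lower against a background of 13.1% (6.89% higher, 6.16% lower). Between R3 and R1, 2 were higher and 4 lower against 18.7% (7.9% higher, 10.8% lower). All 3 arrays of one gate lay on one side of those of the other for 5, 3 and 5 of the 7 members, against 22.7%, 30.8% and 34.4% of all genes. Both comparisons with R1 share its arrays, so they are not independent of each other. In bulk samples, fewer cells of a type and less RNA per cell cannot be told apart.

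**Figure D1:**
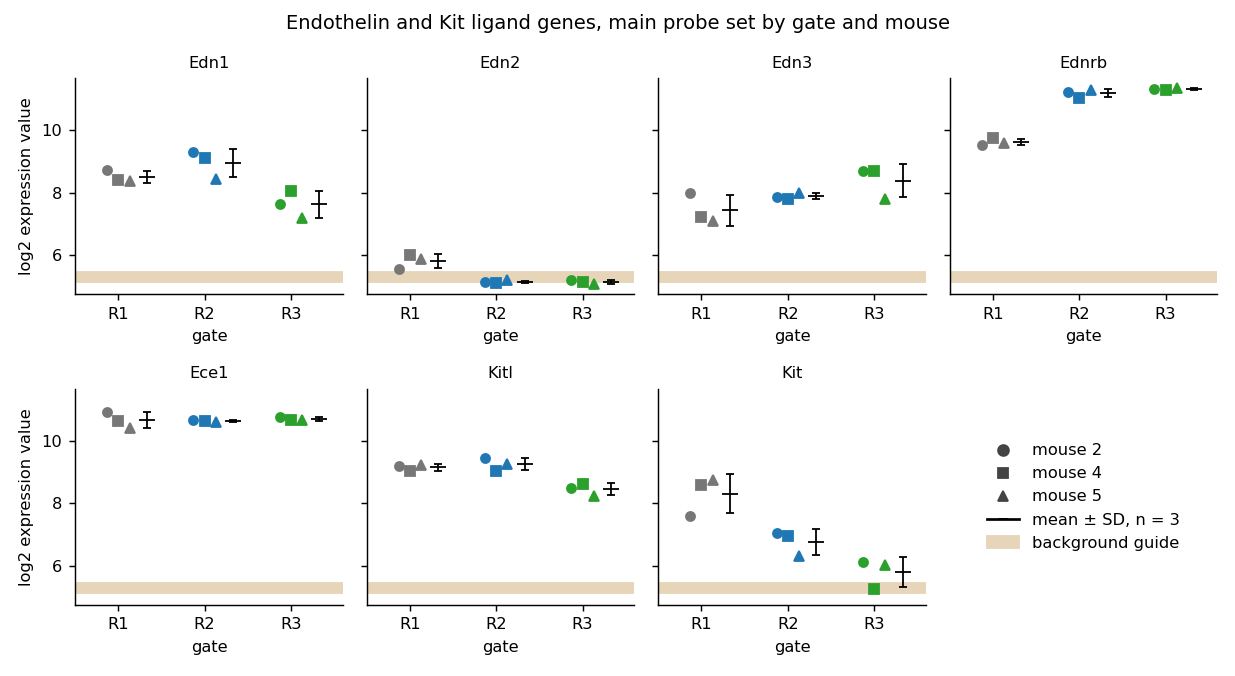
Log2 expression value (vertical axis) of the main probe set of 7 genes in gates R1, R2 and R3; each marker is 1 array, its shape the mouse, with the mean ± SD of 3 arrays in black and the background guide as a band. Ednrb lies higher on all R2 and R3 arrays (11.02 to 11.33) than on the R1 arrays (9.53 to 9.73), while Kit falls from R1 to R3.

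Edn3 encodes endothelin 3, the ligand that melanocyte precursors depend on. Its promoter is shown because Edn3 is the one ligand of the set that was called higher in a papilla gate, R3, than in R1. The RefSeq window covers 250 bases before the start on the plus strand of GRCm38.p6, chr2:174760369-174760618, with matches to the E-box CANNTG in capitals.
Edn3: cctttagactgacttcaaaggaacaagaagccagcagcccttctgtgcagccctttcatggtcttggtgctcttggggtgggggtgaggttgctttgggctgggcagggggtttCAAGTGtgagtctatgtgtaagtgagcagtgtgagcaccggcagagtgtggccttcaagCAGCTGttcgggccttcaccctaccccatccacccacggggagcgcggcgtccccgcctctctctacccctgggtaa
The window held 2 E-box matches, and 66.2% of 32851 RefSeq promoter windows of the same length hold at least 1.

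The main probe set of Edn3, 1441923_s_at, stood at 7.99, 7.20 and 7.09 in R1 (mice 2, 4 and 5), 7.86, 7.80 and 7.99 in R2, and 8.69, 8.68 and 7.78 in R3. The array of mouse 2 was high within R1 and that of mouse 5 low within R3, and the gates overlapped. The mean was 1.94-fold higher in R3 than in R1 (log2 change 0.95, standard error 0.29, n = 3 per gate, limma adjusted p = 0.0478), with the same sign in 3 of 3 mice. The change was 1.37-fold from R1 to R2 (adjusted p = 0.365) and 1.41-fold from R2 to R3 (adjusted p = 0.415), and neither was called. The call against R1 was lost without R1 replicate 4 (adjusted p = 0.143), R1 replicate 5 (0.138), R3 replicate 2 (0.143) or R3 replicate 4 (0.151), with the 6 arrays alone (0.0957), and with every probe set tested singly (0.0547). A 2-fold minimum, which cannot call a fold under 2, also ended it (adjusted p = 1), at the upper end of a range from 2e-05 over its alternatives.

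A second Edn3 probe set, 1438696_at, separated all 3 gates. It stood at 6.53, 6.50 and 6.33 in R1, at 7.42, 7.77 and 7.81 in R2, and at 8.56, 8.69 and 8.58 in R3. No array of one gate overlapped another gate, and R2 lay between R1 and R3 in each mouse. With every probe set tested singly, it was 2.31-fold higher in R2 than in R1 (log2 change 1.21, standard error 0.14, limma adjusted p = 0.000743). From R2 to R3 it rose a further 1.93-fold (log2 change 0.95, standard error 0.14, adjusted p = 0.00564). Against R1, R3 was 4.45-fold higher (adjusted p = 2e-05).

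The remaining Edn3 probe sets were dim. Probe set 1421136_at averaged 4.70 ± 0.44, 5.42 ± 0.17 and 5.71 ± 0.55 in R1, R2 and R3 (SD, n = 3), and was 2.02-fold higher in R3 than in R1 (limma adjusted p = 0.0436), where 0 of 3 R1 arrays exceeded the background guide. Probe set 1441924_x_at averaged 5.59 ± 0.83, 5.53 ± 0.30 and 6.30 ± 0.35 and was not called in any comparison. With the mean of all its probe sets, Edn3 was called between R3 and R1 (adjusted p = 0.00214), but not between R2 and R1 (0.0829) or R3 and R2 (0.116). Of the 4 probe sets, 1438696_at was the one whose steps from R1 to R2 and from R2 to R3 were both called. The summed level of the 19 papilla markers lay at 16303 to 17724, 29554 to 30572 and 44271 to 50688 in R1, R2 and R3 (linear values). That of 10 Schwann and glial markers lay at 1991 to 2696, 758 to 869 and 8458 to 9379. By gene, the step from R2 to R3 was less even: 7 of the 19 papilla markers were higher, 1 lower and 11 not called. Of the 10 Schwann and glial markers, 9 were higher there and 0 lower. The part of either in the Edn3 values was not tested.

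Edn1 encodes endothelin 1, known chiefly as a vasoconstrictor made by endothelium. It has 1 probe set, which stood at 8.71, 8.41 and 8.37 in R1, at 9.29, 9.10 and 8.45 in R2, and at 7.62, 8.05 and 7.18 in R3. The R3 arrays lay under every array of the other gates, while R1 and R2 overlapped. Relative to R2, Edn1 was 2.51-fold lower in R3 (log2 change -1.33, standard error 0.26, limma adjusted p = 0.019) and relative to R1 it was 1.84-fold lower (log2 change -0.88 with standard error 0.26, adjusted p = 0.0447), in 3 of 3 mice each. R2 was 1.36-fold above R1, which was not called (adjusted p = 0.323).

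Between R3 and R2, Edn1 was no longer called without R2 replicate 2 (adjusted p = 0.0751), R2 replicate 4 (0.0759), R3 replicate 2 (0.0621) or R3 replicate 5 (0.0536). It was also lost with the 6 arrays alone (0.0513) and with a 2-fold minimum (1), and the alternatives began at 0.00943. Between R3 and R1 it was lost without R1 replicate 2 (0.132), R1 replicate 4 (0.0888), R1 replicate 5 (0.0729), R3 replicate 2 (0.1) or R3 replicate 5 (0.133). With every probe set tested singly it missed the threshold as well (0.0519), and the range over the other alternatives was 0.0176 to 1.

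Endothelial markers moved in the same comparison. Of 17 measured, 16 were lower in R3 than in R2 and 0 higher, with a median log2 change of -2.24 against -0.01 over all genes. Kdr, a receptor for VEGF, was 3.95-fold lower (adjusted p = 1.38e-05). The sialomucin gene Emcn averaged 8.49 in R2 and 4.63 in R3, the latter under the background guide (adjusted p = 5.3e-05). The summed level of the 17 endothelial markers ranged from 2395 to 2768 in R1, 6519 to 8155 in R2 and 1560 to 2010 in R3. By this sum the gates stood in the same order as the means of Edn1, but not for each marker. In R3, 6 of the 17 averaged under 5.46, the top of the background guide. Between R2 and R1, 14 of the 17 were higher, and between R3 and R1, 2 were higher and 9 lower. Kdr averaged 7.08 in R1 and 7.48 in R3. The part of endothelial RNA in the Edn1 values was not tested.

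Edn2, the endothelin gene known from ovary and gut, was dim throughout. Its probe set ranged from 5.56 to 6.01 in R1, from 5.12 to 5.19 in R2 and from 5.07 to 5.21 in R3. The R1 arrays did not overlap those of the other gates, where all but 1 of 6 arrays lay under their own background guide. The values were 1.59-fold lower in R2 than in R1 (limma adjusted p = 0.0111) and 1.60-fold lower in R3 than in R1 (adjusted p = 0.00698). All 3 R1 arrays lay above their background guide, but the R2 and R3 values lay near background, which limits both folds. A 2-fold minimum, which cannot call a fold under 2, ended both calls (adjusted p = 1, within ranges from 0.00544 and 0.00368).

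Ece1 encodes the membrane protease that converts big endothelins to active peptides. The main probe set ranged from 10.42 to 10.92 in R1, from 10.59 to 10.65 in R2 and from 10.66 to 10.75 in R3. Differences between gates were small, and their 95% intervals spanned -0.24 to 0.39 for R3 minus R2, -0.35 to 0.27 for R2 minus R1 and -0.28 to 0.35 for R3 minus R1 (log2). Of its 3 probe sets none was called in any comparison (limma adjusted p from 0.646 to 0.999 tested singly). The sign of these differences changed between its probe sets.

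Ednrb encodes the receptor that binds the 3 endothelins alike and is carried by melanoblasts, endothelium and glial precursors, among others. Its main probe set, 1437347_at, stood at 9.53, 9.73 and 9.60 in R1, at 11.21, 11.02 and 11.27 in R2, and at 11.29, 11.28 and 11.33 in R3. The R1 arrays lay more than 1 log2 unit under all others, and R3 lay just above R2 without overlap. Ednrb was 2.93-fold higher in R2 than in R1 (log2 change 1.55, standard error 0.12, limma adjusted p = 5.17e-05). In R3 it was 3.21-fold higher than in R1 (log2 change 1.68, standard error 0.12, adjusted p = 1.9e-05). Each rise was seen in 3 of 3 mice.

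R3 exceeded R2 by 0.13 for Ednrb, with a 95% interval of -0.14 to 0.40, and this was not called (adjusted p = 0.619). The other Ednrb probe sets gave like rises. Probe set 1423594_a_at was 2.47-fold higher in R2 and 3.10-fold higher in R3 than in R1 (limma adjusted p = 0.000825 and 0.000153). Probe set 1426314_at was 2.94-fold and 3.39-fold higher (adjusted p = 0.00525 and 0.0018). The Ednrb calls against R1 held in each of the 17 alternatives per comparison.

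Markers of cells known to carry Ednrb are given beside it. Endothelial markers were higher in R2 than in R1 for 14 of 17 genes, but between R3 and R1 2 were higher and 9 lower. Schwann and glial markers were lower in R2 than in R1 for 5 of 10 genes and higher in R3 for 7 of 10. Melanocyte markers were lower in both papilla gates, for 6 and 7 of 13 genes, with 0 higher. In R2 and R3 the summed melanocyte level ranged from 1001 to 1385 and from 928 to 1477, against 2465 to 3161 in R1. Among the 19 dermal papilla markers, 11 and 16 were higher in R2 and R3 than in R1, with 0 lower. The part of any of these cells in the Ednrb values was not tested.

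**Figure D2:**
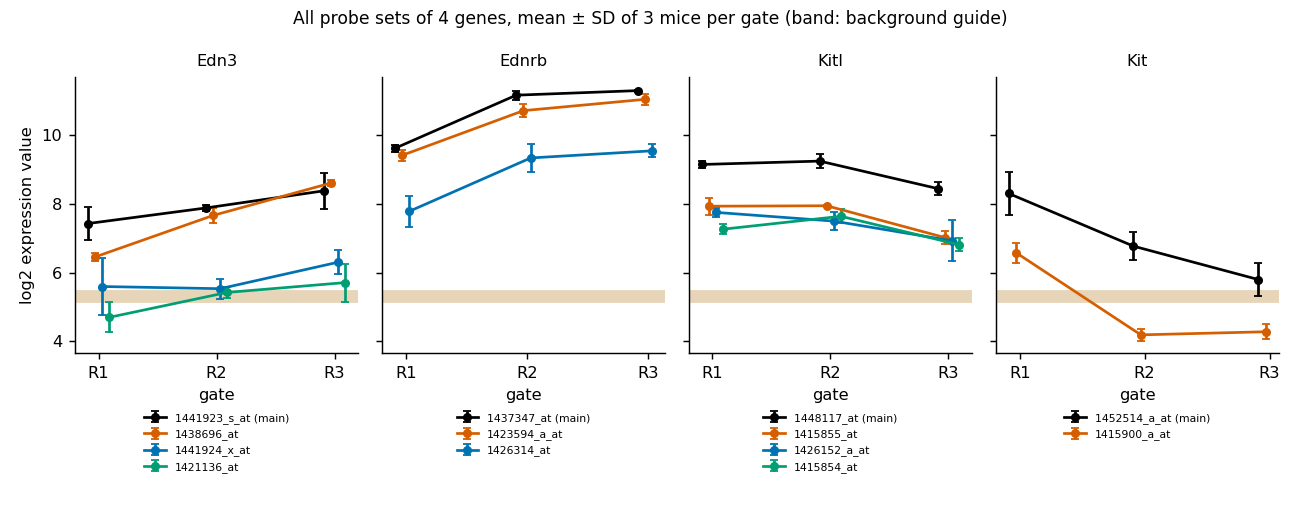
Log2 expression value (vertical axis) of every probe set of Edn3, Ednrb, Kitl and Kit by gate, as mean ± SD of 3 mice; the band is the background guide. All 3 Ednrb probe sets rise from R1 to R2, and Edn3 probe set 1438696_at climbs from 6.46 to 7.66 and 8.61, while Kit probe set 1415900_a_at drops under the band in R2 and R3.

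Kitl encodes Kit ligand, a growth factor made in membrane-bound and soluble forms by skin keratinocytes, fibroblasts and endothelium. The main probe set, 1448117_at, stood at 9.19, 9.02 and 9.24 in R1, at 9.44, 9.04 and 9.26 in R2, and at 8.48, 8.62 and 8.24 in R3. Every R3 array lay under every array of R1 and R2, which overlapped. Relative to R2, Kitl was 1.74-fold lower in R3 (log2 change -0.80, standard error 0.15, limma adjusted p = 0.0146) and relative to R1 it was 1.63-fold lower (log2 change -0.70 with standard error 0.15, adjusted p = 0.0101), in 3 of 3 mice each. R2 and R1 differed by 0.10, with a 95% interval of -0.24 to 0.44 (adjusted p = 0.744).

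Of the 4 Kitl probe sets, 3 were called lower in R3 than in R2 when tested singly. Probe set 1415855_at was 1.90-fold lower (limma adjusted p = 0.0113) and probe set 1415854_at 1.77-fold lower (adjusted p = 0.0191). Probe set 1426152_a_at was not called at 1.49-fold (adjusted p = 0.343), and its R3 arrays spread from 6.28 to 7.45. Between R3 and R1, 2 of the 4 were called, since 1415854_at (adjusted p = 0.0885) and 1426152_a_at (0.07) missed the threshold. Kitl was no longer called between R3 and R2 without R2 replicate 2 (adjusted p = 0.0597) and with a 2-fold minimum (1), within a range from 0.00459. The 2-fold minimum ended the call against R1 too (adjusted p = 1, range from 0.00263). Both Kitl folds are under 2, so this setting could not call them.

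Endothelial markers were lower in R3 than in R2, as given above for Edn1, and 4 of 11 dermal fibroblast markers were lower as well, with 0 higher. Among these, the matrix protein gene Dpt was 2.18-fold lower and Thy1, a surface protein, 1.75-fold lower. Between R2 and R1, where Kitl was not called, 14 of 17 endothelial markers were higher, and 5 of 11 fibroblast and 15 of 16 keratinocyte markers were lower. Between R3 and R1, where Kitl was lower, 9 of 17 endothelial markers were lower and 2 higher. In that comparison 6 of 11 fibroblast and 15 of 16 keratinocyte markers were lower, with 0 higher. The part of these cells in the Kitl values was not tested.

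Kit encodes the tyrosine kinase receptor of Kitl. Its promoter is given because it is the member with the largest range between gate means, with 1 match to the GC box GGGCGG in capitals. The RefSeq window covers 250 bases before the start on the plus strand of GRCm38.p6, chr5:75574737-75574986.
Kit: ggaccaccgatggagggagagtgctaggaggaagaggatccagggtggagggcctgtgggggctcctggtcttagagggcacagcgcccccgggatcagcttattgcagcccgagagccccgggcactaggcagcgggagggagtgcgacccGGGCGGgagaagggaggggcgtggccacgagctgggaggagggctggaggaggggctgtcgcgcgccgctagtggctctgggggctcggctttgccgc
The window is 70.8% G or C, against a median of 52.4% over all windows, and 32.7% of all windows hold a GC box. The same search found 3 GC boxes and a TATA box (TATAAA, in 12.4% of windows) in the window of Kitl. Both strands were searched, also for AGATAA (in 9.99% of windows), ACAAAG (16.5%) and ACAATG (10.7%), of which the windows of Edn3 and Kit held none.

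The main Kit probe set, 1452514_a_at, stood at 7.59, 8.60 and 8.74 in R1, at 7.06, 6.96 and 6.30 in R2, and at 6.11, 5.25 and 6.03 in R3. The gates did not overlap, and the lowest R3 array, that of mouse 4, lay just above the background guide of that array. Kit was 2.90-fold lower in R2 than in R1 (log2 change -1.54, standard error 0.35, limma adjusted p = 0.018) and 5.70-fold lower in R3 than in R1 (log2 change -2.51, standard error 0.35, adjusted p = 0.00096). Between R3 and R2 the change was -0.97, with the same sign in 3 of 3 mice, and was not called (adjusted p = 0.167).

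The call between R2 and R1 was lost without R1 replicate 4 (adjusted p = 0.0646), R1 replicate 5 (0.0599) or R2 replicate 5 (0.061), and with a 2-fold minimum (1), within a range from 8.65e-05. A second Kit probe set, 1415900_a_at, stood at 6.46, 6.91 and 6.37 in R1, and ranged from 4.02 to 4.36 in R2 and from 4.05 to 4.49 in R3. All R2 and R3 arrays lay under the background guide. It was 5.26-fold lower in R2 and 4.94-fold lower in R3 than in R1 (limma adjusted p = 8.65e-05 and 5.83e-05). These folds rest on dim values, and this probe set gave a difference of 0.091 between R3 and R2, opposite in sign to the main one (adjusted p = 0.87).

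Markers of mast cells and melanocytes, both known to carry Kit, fell beside it, but so did markers of other cells. Of 16 keratinocyte markers, 15 were lower in R2 and 15 in R3 than in R1, with 0 higher. Of 12 leukocyte markers, 8 and 7 were lower, with 0 higher. Of 10 measured mast cell markers, 9 were lower in R2 and 9 in R3 than in R1, with 0 higher, and median log2 changes of -2.91 and -3.63. Cma1, a mast cell chymase, was 10-fold lower in R2 and 19.1-fold lower in R3 than in R1 (limma adjusted p = 0.000134 and 2.12e-05). The mast cell protease genes Mcpt4 and Tpsb2 were 21-fold and 10.7-fold lower in R3. The summed level of the 10 mast cell markers ranged from 12323 to 17595 in R1, 1518 to 2347 in R2 and 743 to 1502 in R3. The Fc receptor subunit gene Ms4a2 averaged 7.63 in R1, but 4.42 in R2 and 4.13 in R3, under the background guide.

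Of 13 melanocyte markers, 6 were lower in R2 and 7 in R3 than in R1, with 0 higher and 7 and 6 not called. Dct, an enzyme of melanin synthesis, was 5.33-fold lower in R2 and 6.77-fold lower in R3 (limma adjusted p = 0.00635 and 0.00219). The melanosome genes Pmel and Mlana were 4.07-fold and 3.15-fold lower in R3, and Mitf, the master transcription factor of the lineage, 1.80-fold lower. Sox10 had the higher mean in R3 (7.26, against 6.79 in R1) and was not called higher there. Between R3 and R2, 0 of 10 mast cell markers were called, with 5 at an unadjusted p under 0.05, and of 13 melanocyte markers 1 was called higher. That gene, Sox10, is shared with the Schwann and glial list, of which 9 of 10 genes were higher in R3. The part of mast cells and melanocytes in the Kit values was not tested.

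**Figure D3:**
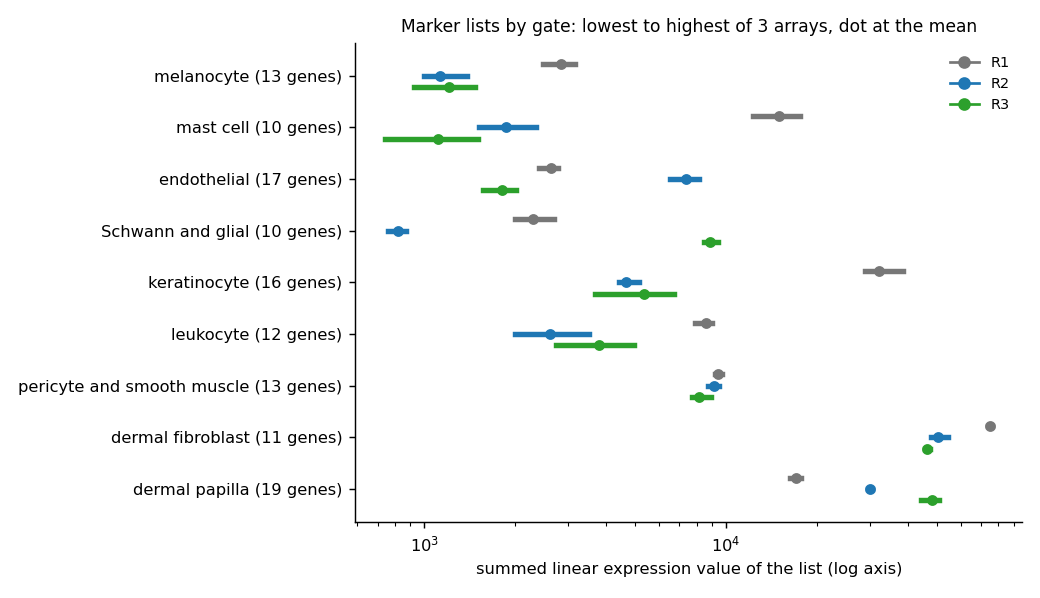
Summed linear expression value (horizontal log axis) of the measured genes of 9 marker lists in gates R1, R2 and R3; bars run from the lowest to the highest of 3 arrays and dots mark the mean. By mean, the mast cell, melanocyte, keratinocyte, leukocyte, pericyte and dermal fibroblast sums are highest in R1. The endothelial sum is highest in R2 (6519 to 8155), and the Schwann and glial sum (8458 to 9379) and the dermal papilla sum are highest in R3.

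A further list held genes of endothelin processing and of Gq signalling, the G protein route of endothelin receptors. Of 13 measured, 0 were higher and 2 lower in R3 than in R2, where 5.03% of all genes were called. In R2 against R1, 2 were higher and 0 lower (13.1% of all genes called), and in R3 against R1, 2 were higher and 1 lower (18.7%). Plcb1, a phospholipase C activated by Gq, was 3.96-fold higher in R2 than in R1 (limma adjusted p = 0.000137) and 2-fold higher in R3 than in R1 (adjusted p = 0.00467). From R2 to R3 it fell 1.98-fold (adjusted p = 0.0146). Mme, the protease neprilysin, which degrades endothelins among other peptides, was 2.65-fold higher in R2 than in R1 (adjusted p = 0.000381) and fell 2.23-fold from R2 to R3 (adjusted p = 0.00245).

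Gnaq, the Gq alpha subunit gene, was 1.69-fold higher in R3 than in R1 (limma adjusted p = 0.0138). Ece2, a second endothelin converting enzyme, was 3.79-fold lower in R3 than in R1 (adjusted p = 0.00487). The list had median log2 changes of -0.09, -0.02 and 0.08 for R3 against R2, R2 against R1 and R3 against R1.

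Among 18 measured genes of Kit signalling, 1 was higher and 1 lower in R3 than in R2, where 5.03% of all genes were called. In R2 against R1, 5 were higher and 2 lower (13.1% of all genes called), and in R3 against R1, 6 were higher and 3 lower (18.7%). Median log2 changes were 0.15, 0.19 and 0.17. Stat5a, a transcription factor downstream of cytokine and kinase receptors, was 2.72-fold higher in R3 than in R1 and 1.92-fold higher than in R2 (limma adjusted p = 0.0019 and 0.0449). Pik3r1, the regulatory subunit of PI3 kinase, was 1.65-fold and 1.86-fold higher in R2 and R3 than in R1 (adjusted p = 0.0115 and 0.00263). Fyn, a Src family kinase, was 1.61-fold and 1.82-fold lower (adjusted p = 0.0158 and 0.00366). Sh2b3, an adaptor that dampens receptor signalling, fell 1.62-fold from R2 to R3 (adjusted p = 0.0339).

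Of 11 other secreted or membrane regulators of melanocytes, 0 were higher and 2 lower in R3 than in R2, where 5.03% of all genes were called. In R2 against R1, 2 were higher and 1 lower (13.1% of all genes called), and in R3 against R1, 3 were higher and 3 lower (18.7%). Corin and Bmp4 are also on the list of dermal papilla markers. Corin, a protease of the papilla that limits agouti signalling, was 11.5-fold higher in R2 and 16.2-fold higher in R3 than in R1 (limma adjusted p = 1.59e-05 and 4.2e-06). Bmp4, a growth factor, was 2.50-fold and 2.27-fold higher (adjusted p = 0.000266 and 0.000363). Cxcl12, a chemokine, was 2.70-fold and 3.80-fold lower (adjusted p = 0.000529 and 6.75e-05). The Wnt inhibitor gene Dkk1 and the growth factor gene Igf1 fell 1.96-fold and 2.28-fold from R2 to R3 (adjusted p = 0.00925 and 0.00868), as Kitl was.

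**Figure D4:**
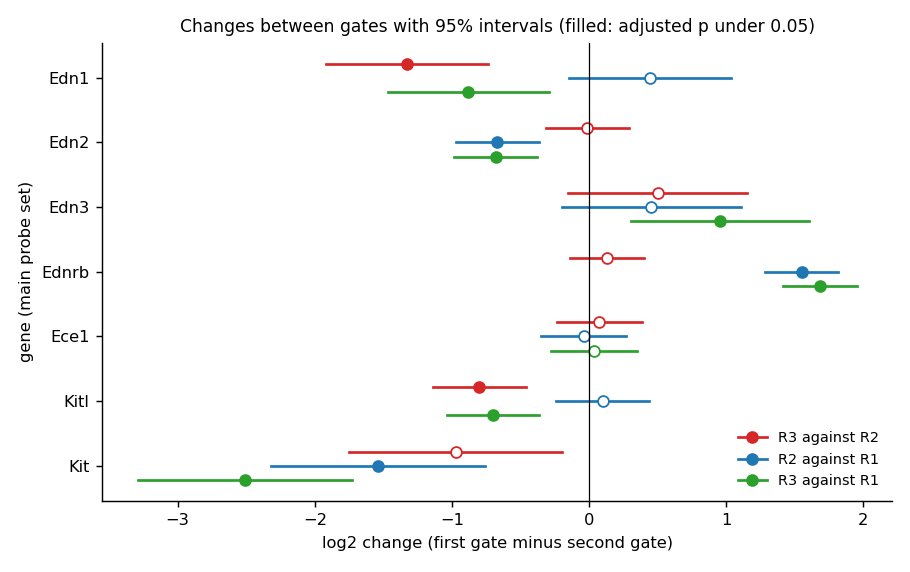
Log2 change between gates (horizontal axis) of the main probe set of 7 genes, with 95% intervals from the moderated standard error, 1 colour per comparison; filled dots have an adjusted p under 0.05. The R2 and R3 changes of Ednrb against R1 (1.55 and 1.68) lie close together, whereas for Edn1 and Kitl both changes of R3 are below 0 (-1.33 and -0.88, -0.80 and -0.70).

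For the 6 members called in any comparison, the 3 genes most like each were found by Pearson correlation over the 9 arrays, among genes at or above the median gene. These values are a description: the points share mice and gates, and 8859 genes were searched for each (8860 for Edn2). Ednrb was most like Col11a1 (r = 0.992), a collagen chain, then Nr1d2 (0.99), a nuclear receptor of the clock, and Lonrf1 (0.989). Kitl was most like Gng11 (0.983), a G protein gamma subunit, Igf1 (0.972) and Hoxb4 (0.965). Kit was most like Mrpl44 (0.98), Hccs (0.974) and Rab27b (0.97), a GTPase of secretory granules.

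Edn3 was most like Atp2b1 (0.972), a plasma membrane calcium pump, Cfap410 (0.967) and Rnf144a (0.954). Edn1 was most like Noa1 (0.969), Lrrc57 (0.969) and Tlr2 (0.966), an innate immune receptor. Edn2, near background, was most like Svil (0.971), Slc7a5 (0.967), an amino acid transporter, and Col1a2 (0.962). Igf1 averaged 9.80, 10.06 and 8.87 in R1, R2 and R3, a pattern with its lowest mean in R3 like that of Kitl. Col11a1 averaged 7.87, 10.66 and 10.88, with its lowest mean in R1 like that of Ednrb.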

How the data were processed

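Total RNA of 9 sorted samples was amplified, labelled with biotin and hybridised to arrays, per the labels' protocols. The deposited values are on a log2 scale. RMA, which corrects background, quantile-normalizes and summarises probes, was used by the authors, per the submitters' processing notes. Neither its version nor whether arrays were processed together is known here. Amplification and quantile normalization can compress folds, and the values hold no detection call. The number of arrays limits the precision.

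Of 45101 probe sets, 34958 had 1 symbol in the platform annotation, 932 had several and 9211 none. The 64 control probe sets were left out. Of those with 1 symbol, 34754 matched a RefSeq table (GRCm38.p6), which changed 0 symbols. All 18193 genes were fitted in R 4.3.3 by lmFit, contrasts.fit and eBayes of limma 3.58.1, with 1 coefficient per gate, no block and no filter. Total degrees of freedom were 9.494. The fit was tested on simulated data, where recovery of the smallest changes put in was low, so a gene not called may still differ. Tables were made with pandas 2.3.3 and numpy 2.4.6 under Python 3.11.15, and plots with matplotlib 3.10.9. Means carry the SD of 3 mice.

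Replicate numbers are mouse numbers, so same-numbered arrays are paired. Deviations from gate means correlated at 0.0068 to 0.177 within a mouse and at -0.157 to 0.041 between mice.

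The members and the 12 gene lists (160 of 171 genes measured, 3 genes in several lists) were chosen with earlier results of these data known. Named genes were all members, up to 4 genes with the lowest p per list and comparison, the 3 genes most like each called member with clone-type symbols left out, and the gate genes. Alternatives tried were a fixed or a random mouse block, each array left out in turn, 6 arrays alone, centring, quantile normalization again, the mean of probe sets, probe sets singly, genes above the median gene, trend and robust variance, and a 2-fold minimum. Sequences are from RefSeq. Listed genes without a probe set of 1 symbol were not analysed here.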

Additional observations from a re-analysis of the deposited data

How the results depend on the processing

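With the mouse as a fixed replicate block, 881, 2431 and 3494 genes were called between R3 and R2, R2 and R1, and R3 and R1, against 915, 2375 and 3406 without it. The members called stayed at 2, 3 and 6, and neither this nor the random block changed the call of a member. Leaving out 1 array gave 582 to 813 genes for R3 against R2, 1554 to 1990 for R2 against R1 and 2519 to 3009 for R3 against R1, and 0 to 2, 2 to 3 and 4 to 5 members. The count of 0 came without R2 replicate 2, with limma and 2 members at an unadjusted p under 0.05. With the 6 arrays of the gates alone, 1 member was called between R3 and R2. A 2-fold minimum (limma's treat) left 108, 246 and 379 genes and 0, 1 and 2 members, with 0 members at an unadjusted p under 0.05 for R3 against R2. This setting cannot call a fold under 2, so the calls of Edn2, Edn3 and Kitl, and of Edn1 between R3 and R1, had to be lost. Of 345 values of single members, 298 kept direction and side of the threshold, 31 lost a call, 2 gained one and 14 changed sign. All changes of sign were of differences that were not called. With the mean of its probe sets, Ece1 stood at -0.0082 for R3 against R2 and -0.084 for R3 against R1 (log2). Its single probe sets gave -0.098 and -0.0021 for R3 against R2, 0.062 for R2 against R1, and -0.037 and -0.25 for R3 against R1. Single probe sets also gave 0.091 for Kit (R3 against R2), -0.064 for Edn3 and -0.25 for Kitl (R2 against R1). Leaving out arrays, Ece1 ranged from -0.16 to 0.0896 (R2 against R1) and -0.084 to 0.17 (R3 against R1), and Edn2 from -0.0502 to 0.0197 (R3 against R2). The cause was not tested. Signals near background limit Edn2, Kit probe set 1415900_a_at in R2 and R3, and the dim Edn3 probe sets.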
